A study of Mus musculus with 6 samples.

Results

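The open chromatin of tumour-associated microglia was described from 3 ATAC-seq libraries, MG 1, MG 2 and MG 3, of the 6 in the study. ATAC-seq uses a transposase to cut and tag accessible DNA, so that the reads over a region measure how open it was. The cells were microglia of WT mice carrying orthotopic brain tumours of SB28, an isogenic mouse glioma line, and were FACS-sorted as F4/80+ CD11b+ CD45lo, with LY6C and CD49d low or absent and without LY6G. The transposase was that of a Nextera Tn5 kit. The other 3 libraries, of bone marrow derived macrophages sorted as CD49d high from such tumours, were not used here except through the set of regions and the size factors, which the authors made over all 6. The labels do not say whether the 3 libraries came from separate animals, so the spread between them may be technical, and they state no age. All 92864 annotated regions of the authors' deposited table were used, of 92929 distinct ones, together with the peak list of each microglia library.

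Microglia are the resident macrophages of the brain. They are seeded from the yolk sac, live on signalling through the CSF1 receptor, and hold their identity through TGF-β signalling and a set of transcription factors that includes PU.1, IRF8, MEF2 and SALL1. Promoters of widely used genes are open in most cell types, while the sites that set cells apart usually lie in introns and between genes.

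The level of a region was its normalized count divided by its width, in normalized counts per kb. The promoter level of a gene was that of its highest region in the class within 1 kb of a start site, which 14240 genes had. Regions more than 3000 bp from a start site are named distal. With only 1 group there was no test, and values are given per library or as mean ± SD (n = 3).

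The 3 libraries were not alike. MG 1 and MG 2 were the least alike pair in their levels across regions, although MG 3 had the fewest reads. Reads in table regions numbered 19244734 in MG 1, 23601865 in MG 2 and 12531808 in MG 3, with a median of 45, 90 and 42 reads per region. Over the 14240 promoters, Pearson's r of log2(level + 1) was 0.81 between MG 1 and MG 2, 0.93 between MG 1 and MG 3 and 0.94 between MG 2 and MG 3. Over the 64992 distal sites it was 0.41, 0.74 and 0.78 for the same pairs. These correlations are across regions that share library and depth, and regions are not replicates. In each pair r was higher over promoters than over distal sites.

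**Figure D1:**
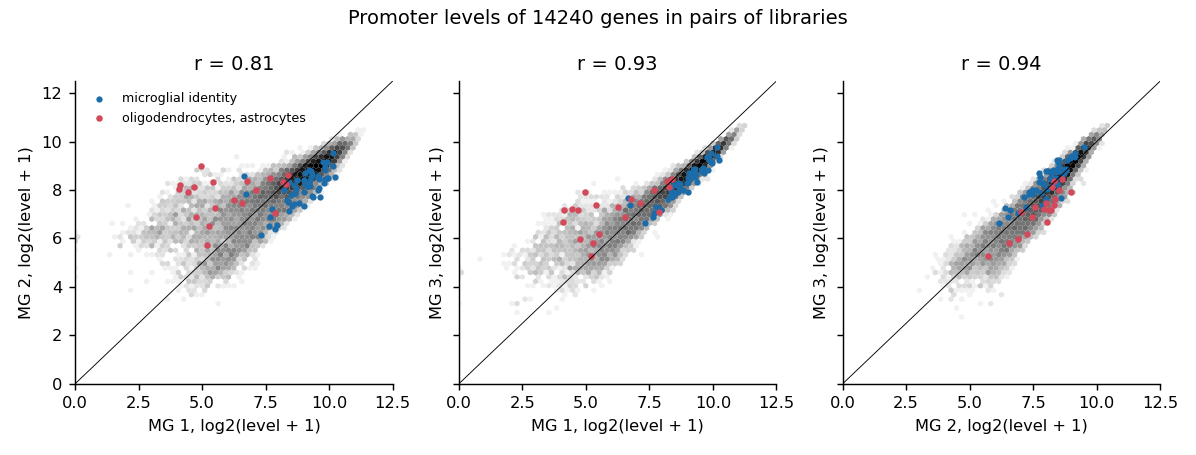
Promoter levels of 14240 genes, as log2(level + 1) with the level in normalized counts per kb, in each pair of microglia libraries; grey hexagons are darker where more genes lie, the line marks equal levels, blue points are microglial identity genes and red points oligodendrocyte and astrocyte genes. The cloud is widest for MG 1 against MG 2 (r = 0.81), where many red points lie above the line and most blue points below it.

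The gene lists moved apart along the same axis. For each promoter the deviation of a library from the mean of the 3 was taken on the log2 scale, less the median of that deviation over all promoters. Its median over the 54 measured microglial identity promoters was 0.27 in MG 1, -0.30 in MG 2 and 0.02 in MG 3. Over 11 oligodendrocyte and progenitor promoters it was -1.36 in MG 1, 1.13 in MG 2 and 0.20 in MG 3, and over 8 astrocyte promoters -0.92, 0.70 and 0.04. The direction was not particular to these lists. MG 1 and MG 2 had -0.46 and 0.39 over neuronal and -0.47 and 0.45 over neutrophil promoters. They had -0.42 and 0.38 over T, NK and B cell and -0.44 and 0.40 over endothelial and pericyte promoters. Monocyte and macrophage promoters had -0.26 and 0.24, and disease-associated and tumour-associated ones 0.11 and -0.08. Housekeeping promoters, 13 of them, also stood higher in MG 1, at 0.23 against -0.22 in MG 2. At distal sites the identity genes had 0.44 in MG 1 and -0.46 in MG 2 (552 sites), and neural progenitor and glioma genes -0.74 and 0.81 (35 sites). In bulk samples fewer cells of a type and less signal per cell cannot be told apart, and the part of other cells or of depth in these differences was not tested.

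**Figure D2:**
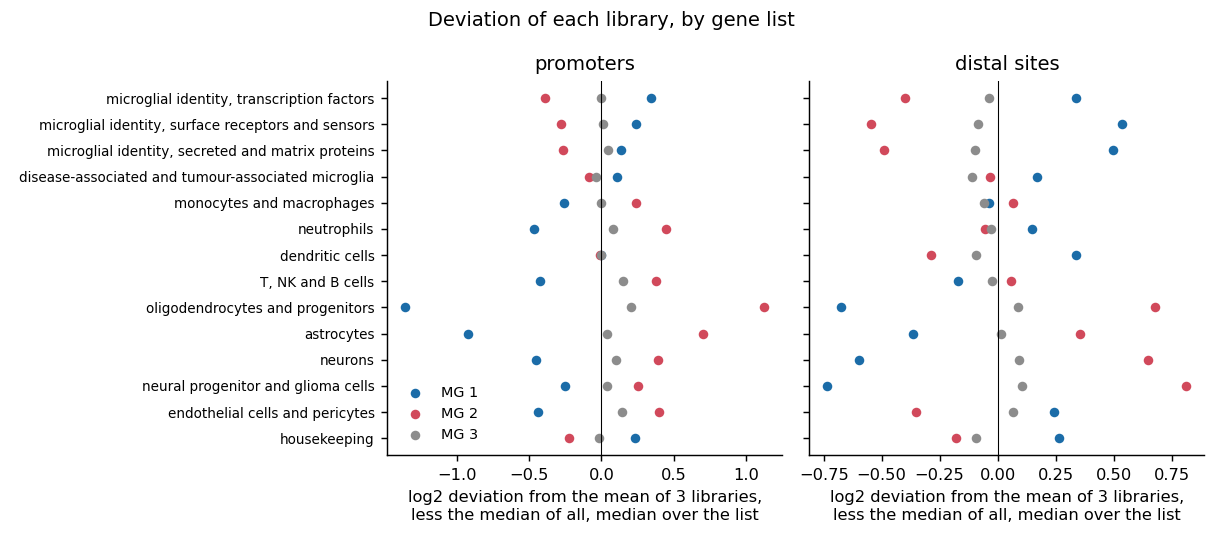
Median log2 deviation of each library (colours) from the mean of the 3 libraries, less the median over all promoters (left) or all distal sites (right), for each gene list. For most lists MG 3 lies between MG 1 and MG 2, and the oligodendrocyte promoters are spread widest, from -1.36 in MG 1 to 1.13 in MG 2.

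Single genes show the size of this gap. They were chosen after their values were seen. The promoter of Sox10, the transcription factor of the oligodendrocyte lineage, had a level of 30.3 in MG 1, 513 in MG 2 and 241 in MG 3. Gpr17, a receptor of oligodendrocyte precursors, had 16.6, 296 and 144. Olig2, a lineage factor of oligodendrocytes, had 41.6, 318 and 165, and S100b, a calcium-binding protein of astrocytes and some oligodendrocyte lineage cells, had 15.9, 260 and 103. In all of these MG 1 was lowest, MG 3 between and MG 2 highest. Not every gene of the list did so. Mbp, which encodes a myelin protein, had 232 in MG 1 against 130 in MG 2 and 134 in MG 3, and Myrf, a myelination factor, had 310, 301 and 282. Of the 11 promoters 8 were highest in MG 2, against 30.7% of all promoters, and 6 were more than 2-fold higher there than in MG 1, against 13.6% of all. No promoter region carried the symbol of Mag or Mobp, which encode myelin proteins.

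The sequences at the start sites of some members are shown first, because the levels that follow refer to them. They are RefSeq windows of GRCm38.p6, the assembly that mm10 also names, read in the direction of the gene from 250 bases before to 30 bases after the start site, and capitals mark matches to the motifs searched. The first set holds the markers P2ry12 (chr3:59262956-59263235, minus strand), Sall1 (chr8:89042833-89043112, minus strand) and Cx3cr1 (chr9:120068267-120068546, minus strand).
P2ry12: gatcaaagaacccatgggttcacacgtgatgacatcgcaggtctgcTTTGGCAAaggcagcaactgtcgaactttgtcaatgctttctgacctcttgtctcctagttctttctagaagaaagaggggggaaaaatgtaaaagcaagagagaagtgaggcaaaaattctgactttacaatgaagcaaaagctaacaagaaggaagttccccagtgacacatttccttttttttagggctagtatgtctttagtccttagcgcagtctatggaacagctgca
Sall1: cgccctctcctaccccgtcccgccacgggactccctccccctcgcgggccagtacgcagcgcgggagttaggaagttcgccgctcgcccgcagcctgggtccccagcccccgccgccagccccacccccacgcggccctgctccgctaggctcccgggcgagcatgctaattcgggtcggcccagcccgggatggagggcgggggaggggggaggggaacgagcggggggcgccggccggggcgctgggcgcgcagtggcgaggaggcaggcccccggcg
Cx3cr1: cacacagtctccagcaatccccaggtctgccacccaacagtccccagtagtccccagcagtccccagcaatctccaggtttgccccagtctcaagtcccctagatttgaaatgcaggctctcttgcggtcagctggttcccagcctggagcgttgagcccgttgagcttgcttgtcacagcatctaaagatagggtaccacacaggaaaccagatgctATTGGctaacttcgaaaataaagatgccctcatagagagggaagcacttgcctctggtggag
The 3 windows, taken at their full 300 bases, differ in composition. The Sall1 window is 79.7% G and C with an observed to expected CpG ratio, the CpG count over that from base composition, of 0.82, and it held none of the motifs searched. The P2ry12 window is 42.3% G and C with a ratio of 0.30, and its capitals mark a C/EBP word, while a CCAAT box lies past the printed stretch. The Cx3cr1 window has a ratio of 0.23, and its capitals mark a CCAAT box read on the other strand.

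Next come 2 of the most open promoters, Junb (chr8:84978719-84978998, minus strand) and H3f3b (chr11:116024475-116024754, minus strand), where the capitals mark CCAAT boxes on either strand.
Junb: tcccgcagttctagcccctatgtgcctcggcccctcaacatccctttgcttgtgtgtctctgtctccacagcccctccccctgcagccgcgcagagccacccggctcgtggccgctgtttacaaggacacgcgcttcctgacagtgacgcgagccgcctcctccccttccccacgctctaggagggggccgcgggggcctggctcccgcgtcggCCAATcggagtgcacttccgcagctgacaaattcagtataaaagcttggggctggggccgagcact
H3f3b: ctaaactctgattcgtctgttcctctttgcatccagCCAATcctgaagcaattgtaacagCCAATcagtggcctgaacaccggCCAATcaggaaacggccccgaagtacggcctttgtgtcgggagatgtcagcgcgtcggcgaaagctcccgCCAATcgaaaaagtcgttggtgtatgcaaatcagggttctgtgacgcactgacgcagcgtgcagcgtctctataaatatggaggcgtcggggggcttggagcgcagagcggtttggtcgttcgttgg
The last set holds every identity gene whose window had the PU.1 word GAGGAAGT: Adora3 (chr3:105904171-105904450, plus strand), Slco2b1 (chr7:99711311-99711590, minus strand), C1qc (chr4:136892885-136893164, minus strand) and Ctss (chr3:95526536-95526815, plus strand).
Adora3: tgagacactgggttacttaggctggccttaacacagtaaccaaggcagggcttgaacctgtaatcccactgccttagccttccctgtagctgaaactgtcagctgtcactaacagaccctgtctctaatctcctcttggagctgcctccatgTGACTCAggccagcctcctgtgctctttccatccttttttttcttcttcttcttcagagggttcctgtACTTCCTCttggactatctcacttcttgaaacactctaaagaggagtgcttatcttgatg
Slco2b1: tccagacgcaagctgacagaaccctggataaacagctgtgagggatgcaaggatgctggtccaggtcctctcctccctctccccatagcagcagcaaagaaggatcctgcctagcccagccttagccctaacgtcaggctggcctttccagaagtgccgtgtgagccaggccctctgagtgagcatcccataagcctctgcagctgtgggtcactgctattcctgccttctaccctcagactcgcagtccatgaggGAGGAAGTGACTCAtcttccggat
C1qc: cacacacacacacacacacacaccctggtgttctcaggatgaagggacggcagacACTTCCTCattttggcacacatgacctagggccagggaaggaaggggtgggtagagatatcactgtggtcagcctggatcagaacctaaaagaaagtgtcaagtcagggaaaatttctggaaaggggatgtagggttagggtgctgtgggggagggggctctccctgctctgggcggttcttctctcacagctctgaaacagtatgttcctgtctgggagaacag
Ctss: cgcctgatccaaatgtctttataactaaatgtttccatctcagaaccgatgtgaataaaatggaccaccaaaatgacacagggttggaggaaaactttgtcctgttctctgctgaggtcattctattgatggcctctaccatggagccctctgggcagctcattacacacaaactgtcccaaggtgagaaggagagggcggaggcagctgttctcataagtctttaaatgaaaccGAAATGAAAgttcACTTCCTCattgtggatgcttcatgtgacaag
In Adora3 the capitals mark an AP-1 word before the PU.1 word. In Slco2b1 the PU.1 word runs into an AP-1 word, and its last base is the first base of that word. In C1qc only the PU.1 word is marked, read on the other strand, and in Ctss an IRF word precedes it. A match is a description of the letters and not evidence of binding.

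The label of the cells was checked at its 4 markers, and all 4 had a promoter region in each of the 3 lists. So had 83.5% of all 14240 promoters, so this alone says little of cell type. P2ry12 encodes the ADP receptor that steers microglial processes. Its region over the start site (chr3:59262767-59263161, mm10) had a level of 512 in MG 1, 336 in MG 2 and 362 in MG 3. A region 873 bp upstream of a start site had 612, 163 and 285, and one 1456 bp downstream of one had 460, 190 and 294. MG 1 was highest and MG 2 lowest at each of these, and 6 of the 12 table regions assigned to P2ry12 were in all 3 lists. Promoter classes held 88.0% of its normalized counts, but they refer to more than 1 annotated start site. A region at chr3:59219852-59220637 also lay over a start site. The region at chr3:59262767-59263161 alone had a mean count of 159, of 1311 over all regions of the gene.

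Sall1, the zinc finger factor that keeps microglia from adopting other macrophage states, had the most regions of the 4 markers. Its promoter region (chr8:89042171-89044360), 2190 bp wide, had 794 in MG 1, 212 in MG 2 and 420 in MG 3. MG 1 was 3.75-fold above MG 2. Of 31 table regions 20 were in at least 1 list and 11 in all 3, and the farthest in a list lay 587903 bp upstream of the start site. Among the far sites, the region 527484 bp upstream had 200 in MG 1, 146 in MG 2 and 137 in MG 3, and the one 352285 bp upstream had 200, 93.6 and 183. Not all far sites were highest in MG 1. The region 525409 bp upstream had 92.0, 134 and 93.1, and the one 587903 bp upstream had 8.84, 78.4 and 52.8. The nearest gene rule of the annotation assigned these sites to Sall1, and contact with its promoter was not measured.

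Cx3cr1, the fractalkine receptor, was more open inside the gene than at its start. The promoter region (chr9:120067840-120069001) had 367 in MG 1, 159 in MG 2 and 225 in MG 3. In the first intron a region 9003 bp from the start had 793, 318 and 394, and one 12838 bp from it had 722, 338 and 459. Both intron regions exceeded the promoter in all 3 libraries. Only 21.5% of the normalized counts assigned to Cx3cr1 lay in promoter classes.

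Tmem119, a transmembrane protein used to tell microglia from other macrophages, varied least at its promoter. That region (chr5:113799971-113800904) had 346 in MG 1, 317 in MG 2 and 292 in MG 3, or 318 ± 26.7 (SD, n = 3). Its distal sites split: the site 11506 bp upstream had 404, 169 and 226, while the site 12322 bp downstream had 132, 240 and 141. The first was highest in MG 1 and the second in MG 2. The 23.4% of its counts in promoter classes was close to the share of Cx3cr1.

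**Figure D3:**
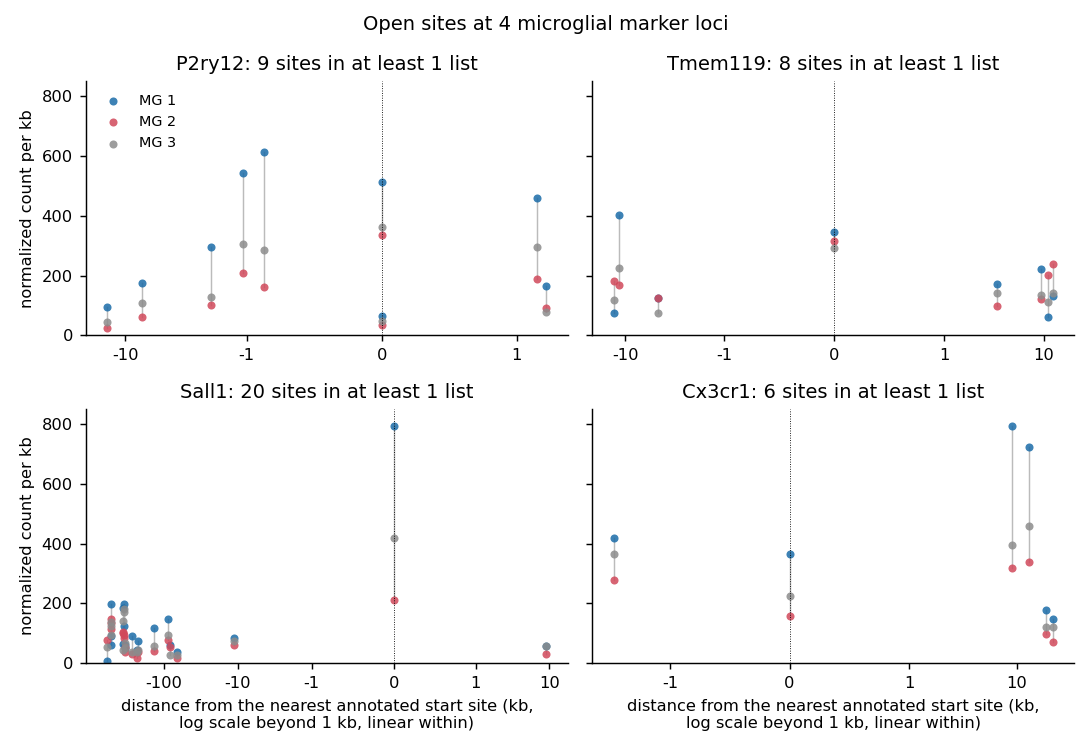
Level of each region in at least 1 microglia list at P2ry12, Tmem119, Sall1 and Cx3cr1 (normalized counts per kb, 1 point per library) against its distance from the nearest annotated start site (kb, log scale beyond 1 kb). Levels of Sall1 are highest at its start site, those of Cx3cr1 in the first intron, and MG 1 is the highest library at most sites of P2ry12 and Cx3cr1.

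None of the 4 markers was among the most open promoters. Their promoter levels stood above those of 67.2% of all promoters for Sall1, 58.6% for P2ry12, 48.2% for Tmem119 and 40.3% for Cx3cr1. Of 55 genes on 3 lists of microglial identity, 54 had a promoter region, 52 of them in all 3 peak lists against 83.5% of all promoters, and 2 were in the top 10% of promoters, beside 8 of 13 housekeeping promoters. The median level over the 54 was 400, beside 334 over all 14240 promoters, and in single libraries 534 in MG 1, 291 in MG 2 and 352 in MG 3. The 54 promoters were highest in MG 1 in 52 cases, while 66.5% of all promoters and 12 of 13 housekeeping promoters were highest there too. Without MG 1 the count in the top 10% was 1, without MG 2 it was 4.

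The transcription factors of the identity lists were the most open of the 3 groups, with a median promoter level of 483 over 16 genes. All 16 were in all 3 peak lists, as were all 13 housekeeping promoters. Cebpa, a leucine zipper factor of myeloid development, had 1144 in MG 1, 504 in MG 2 and 671 in MG 3. Mef2a and Mef2c, which bind the MEF2 motif, had means of 657 ± 236 and 638 ± 325. The Mef2c value is that of its highest promoter region, chr13:83571845-83572787. The region over its RefSeq start, chr13:83523475-83525256, had a mean of 233. The lowest were Tal1, a helix-loop-helix factor of blood cells, at 305 ± 184, and Sall3, a relative of Sall1, at 251 ± 53.5. All 16 promoters were highest in MG 1, as were 66.5% of all promoters, and 13 were lowest in MG 2. Lowest in MG 2 were also 12 of 13 housekeeping promoters and 47.4% of all promoters. These genes also had many regions: the median was 14 in at least 1 list, beside 3 over all genes with a region. Runx1, a factor of blood and myeloid development, had 50, Maf, a large Maf factor, 30, Smad3, which carries TGF-β signals, 26, and Irf8, the interferon regulatory factor of macrophages, 22.

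Surface receptors and sensors had a median level of 314 over 25 genes, near that of all promoters. Tgfbr1, a subunit of the TGF-β receptor, was highest with 1139 in MG 1, 732 in MG 2 and 869 in MG 3. Ltc4s, an enzyme of leukotriene synthesis, had 759 ± 200, Gpr84, a receptor for medium-chain fatty acids, 539 ± 199, and Tgfbr2, the partner of Tgfbr1, 521 ± 209. The Ltc4s value is that of its highest promoter region, chr11:50236391-50237375. The region over its RefSeq start, chr11:50238032-50239485, had a mean of 253. The lowest were Siglech, a sialic acid binding lectin, at 136 ± 57.1, and Gpr34, a receptor for lysophosphatidylserine, at 109 ± 45.0. Tgfbr1 lay above 95.2% of all promoters and Gpr34 above 21.7%. One promoter ran against the rest, and it was singled out after its values were seen. Slc2a5, the fructose transporter, had 99.8 in MG 1, 384 in MG 2 and 205 in MG 3.

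Secreted and matrix proteins had a median of 454 over 13 genes. Lgmn, a lysosomal protease, had 699 ± 154, Cst3, the protease inhibitor cystatin C, 683 ± 212, C1qb, a chain of complement C1q, 634 ± 308, and Tgfb1, the TGF-β ligand, 624 ± 285. The lowest were Sparc, a matrix protein, and Gas6, a ligand of TAM receptors. Sparc had 104 in MG 1, 230 in MG 2 and 167 in MG 3, and Gas6 had 248, 94.4 and 145. Sparc was highest in MG 2, whereas 12 of the 13 were highest in MG 1, against 66.5% of all promoters.

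Genes known from disease-associated and tumour-associated microglia had a median of 307 over 24 promoters, and 2 were in the top 10%. Cd68, a lysosomal glycoprotein of phagocytes, had 1467 in MG 1, 650 in MG 2 and 794 in MG 3. Ccl4, a chemokine for monocytes and T cells, had 1429, 547 and 758, and its neighbour Ccl3 had 658 ± 425. Ctsl, a lysosomal protease, had 589 ± 244. At the other end Igf1, a growth factor, had 61.3 ± 15.5 and Lpl, the lipoprotein lipase, 53.4 ± 6.26, both present in all 3 peak lists.

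In the mean of the 3 libraries, markers of other cells were mostly lower. Median promoter levels were 71.6 over 22 monocyte and macrophage genes, 58.6 over 7 neutrophil genes, 206 over 6 dendritic cell genes and 49.2 over 12 T, NK and B cell genes. Some members of these lists lay above the median of all promoters, the highest being Klf4, a factor of many cell types on the monocyte list, at 1072 ± 462. Ly6c2, which encodes the LY6C that the gate kept low, had 14.6 in MG 1, 33.5 in MG 2 and 19.9 in MG 3. Itga4, which encodes CD49d, had 344, 369 and 348, although the cells were sorted for little of the protein. The part of other cells in this signal was not tested. No promoter region carried the symbol of Ly6g, Cd4, Cd8a or Cd79a. Other T, NK and B cell genes had one, the highest being Gata3 at a mean of 368, Cd3d at 303 and Lck at 260. Each of these was in all 3 peak lists. Cd4 had 4 regions outside promoters in at least 1 list, of which 3 were in all 3. The medians of brain cell lists were 175 over 11 oligodendrocyte promoters, 127 over 8 astrocyte, 114 over 8 neuronal and 147 over 11 neural progenitor and glioma promoters. In single libraries the order was not the same. The oligodendrocyte median was 41.6 in MG 1, 301 in MG 2 and 165 in MG 3. That of the 54 identity promoters was 534, 291 and 352, so in MG 2 it was the lower of the 2. The summed level of the oligodendrocyte promoters was 1529 in MG 1, 3281 in MG 2 and 2255 in MG 3. Among the neuronal genes Tubb3, a tubulin, was highest at 129, 377 and 235, and among the astrocyte genes Slc1a3, a glutamate transporter, at 107, 326 and 197. Endothelial and pericyte promoters, 9 of them, had a median of 104.

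**Figure D4:**
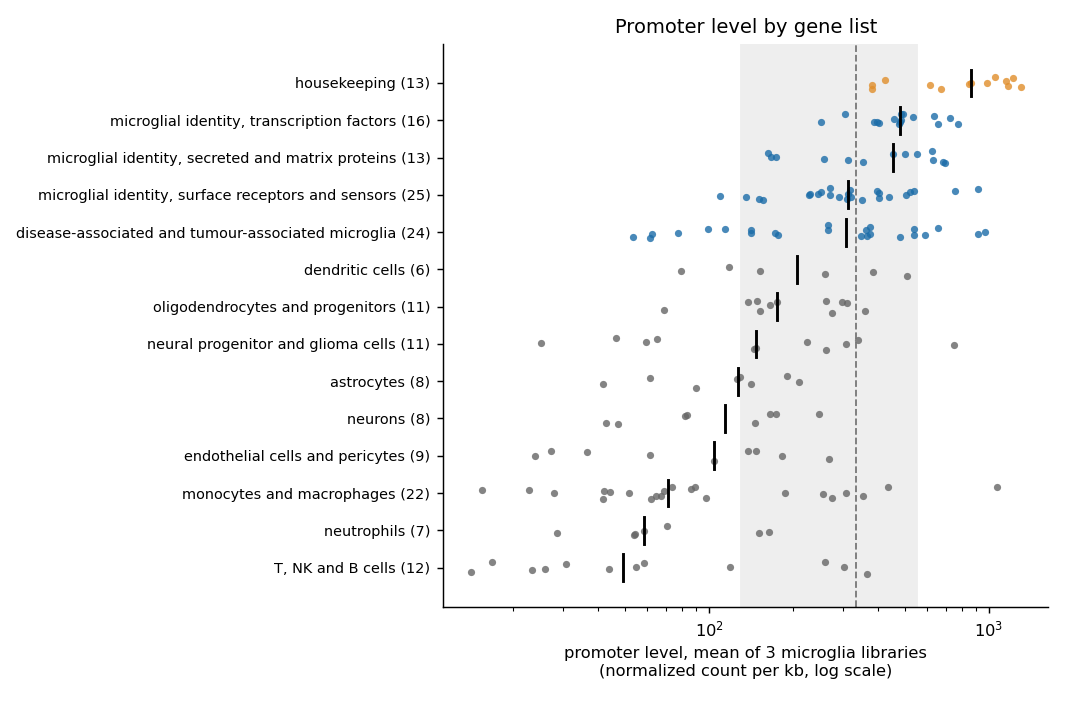
Promoter level, mean of 3 libraries, in normalized counts per kb on a log axis, 1 point per gene, for each list (number of measured promoters in brackets), with the list median as a black bar. The dashed line is the median of all promoters, 334, and the grey band their quartiles, from 130 to 553; housekeeping genes lie highest, at 866, and the identity lists lie around the line.

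Reads were concentrated at promoters. Regions within 1 kb of a start site were 21.2% of table regions and 32.8% of their width, but held 63.5% of the normalized counts in MG 1, 56.4% in MG 2 and 60.7% in MG 3, or 60.2% ± 3.56 (SD, n = 3). MG 1 had the largest share and MG 2 the smallest. Distal intergenic regions were 29.2% of regions and held 14.5% ± 1.71, and later introns were 20.7% of regions and held 8.42% ± 1.03. Both of these shares were highest in MG 2. First introns held 5.75% ± 0.372 and exons 3.66% ± 0.279. Per kb of width the promoter class had 376 ± 63.2, against 117 ± 11 for distal intergenic regions and 102 ± 9.33 for later introns. Between libraries the promoter level differed most, at 449 in MG 1, 337 in MG 2 and 342 in MG 3.

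**Figure D5:**
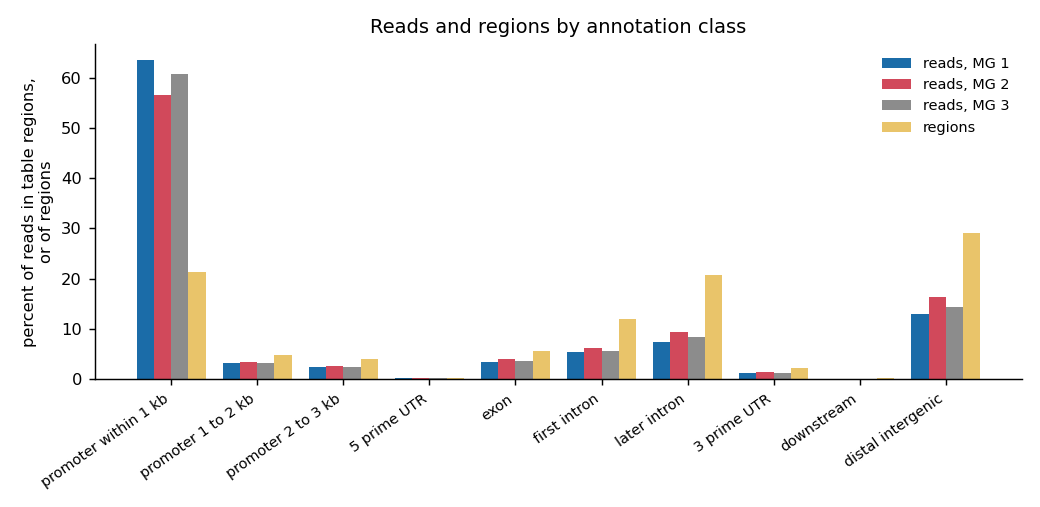
Percent of normalized counts in table regions per library, and percent of regions (yellow), in each annotation class of the authors' table. In all 3 libraries the class within 1 kb of a start site holds 56.4% to 63.5% of counts with 21.2% of regions, while intergenic regions and later introns hold a smaller share of counts than of regions.

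A small part of the regions carried most of the signal. The 929 regions with the highest counts of each library, 1% of all, held 14.6% in MG 1, 10.5% in MG 2 and 12.6% in MG 3, and the top 10% held 63.6%, 52.6% and 57.3%. MG 1 was the most concentrated library and MG 2 the least.

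The peak lists shared most of their strongest peaks and differed over the weaker ones. They held 50217 peaks for MG 1, 70739 for MG 2 and 52566 for MG 3. The lists of MG 2 and MG 3 carry other numbers in their names than the sample titles do, and were assigned by the record of each sample's files. Of the table regions in only 1 list, 90.7% for MG 1, 91.1% for MG 2 and 64.7% for MG 3 had their highest normalized count in the table column of the same sample. Merged, they gave 78012 regions, of which 38921 (49.9%) were in all 3 lists, 15374 in 2 and 23717 in 1. Most of the last group, 17904, were in the list of MG 2 alone, which also had the most reads, against 4617 for MG 1 and 1196 for MG 3. By the authors' fold enrichment over local background, 97.1% of the highest 20% of MG 1 peaks, 82.1% of those of MG 2 and 97.2% of those of MG 3 were in all 3 lists, but 51.7%, 29.6% and 54.9% of the lowest 20%. The list of MG 2 was the least shared at both ends. Of the table's regions 37849 (40.8%) overlapped all 3 lists and held 90.9%, 80.6% and 86.1% of the counts of MG 1, MG 2 and MG 3. Another 17180 overlapped no microglia list. By class, 71.7% of promoter regions within 1 kb were in all 3 lists and 32.2% of distal sites.

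The most open promoter was that of Pisd-ps3, a pseudogene, with 3904 in MG 1, 4464 in MG 2 and 4301 in MG 3. It lies on an unplaced scaffold, and reads of its copies elsewhere may be counted there, so its level is uncertain. The same holds for Dhrsx, on an unlocalized scaffold of chromosome 4, at 1693 ± 678. Pisd-ps3 ranked first in each library, and all 15 genes named here ranked within the first 89 of each.

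Of the 15 genes 7 encode transcription factors or, for Zfpm1, a partner of them. Junb, an AP-1 subunit (chr8:84978360-84978957), had 2983 in MG 1, 1491 in MG 2 and 1976 in MG 3. Its relative Jund had 2355, 1191 and 1537, and Egr1, a zinc finger factor induced by growth signals, had 2290, 1367 and 1676. Each of these was highest in MG 1 and lowest in MG 2. Sp1, which binds GC boxes, had 2041 ± 492 (chr15:102405077-102406981), Rfx1, a winged helix factor, 1730 ± 496, Cic, a repressor under the control of Ras signalling, 1863 ± 600, and Zfpm1, a partner of GATA factors, 1608 ± 623. Sp1 ranked 5, 2 and 3 in the 3 libraries, whereas Zfpm1 ranked 13 in MG 1, 89 in MG 2 and 12 in MG 3.

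Most of the others had roles in chromatin, RNA, trafficking or nuclear receptor coregulation. H3f3b, which encodes histone H3.3 (chr11:116023861-116024807), had 2666 in MG 1, 1383 in MG 2 and 1658 in MG 3. Zfp36, which targets AU-rich mRNAs for decay, had 2338, 1216 and 1488. Hdgfl2, a chromatin-binding protein, had 1721 ± 506, Khsrp, an RNA-binding protein, 1619 ± 415, Rab40c, a Rab GTPase, 1698 ± 436, and Pnrc1, a nuclear receptor coregulator, 1664 ± 449. Of the 15 genes named, 14 were highest in MG 1, against 66.5% of all promoters, the exception being Pisd-ps3. Among the 1000 most open promoters of each library 671 were shared by all 3, and 857 by MG 1 and MG 3. Without division by width, 5 of the 15 stayed among the first 15.

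Distal sites had a median level of 64.4 over all 64992, and the 100 most open of them had a median of 883. The site annotated to Ppp2r3d, a regulatory subunit of phosphatase 2A, had 2062 in MG 1, 1114 in MG 2 and 1356 in MG 3. It overlapped a RefSeq start window, as did the sites annotated to Lncppara, at 1339 ± 315, and Irf2bpl, a transcriptional regulator, at 1081 ± 429. So these are distal by the annotation used in the table and not by RefSeq. Of the 100 most open distal sites 10 overlapped a RefSeq start window, against 1.43% of all distal sites. The site annotated to Zfp36 (chr7:28385875-28386825), 5622 bp upstream of its start, lay in the gene Med29 and had 2084, 810 and 1227, and the site annotated to Zfp958 had 1350 ± 444.

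Sites in the intergenic class followed. One 19408 bp from the start of Plekho2 (chr9:65541486-65542756), a pleckstrin homology protein, had 2125 in MG 1, 789 in MG 2 and 1040 in MG 3. One 17809 bp upstream of Fos, an AP-1 subunit (chr12:85454715-85456081), had 1677, 931 and 1075. One 5068 bp from the start of Socs3, an inhibitor of cytokine signalling (chr11:117963124-117964118), had 1540, 1104 and 1036. MG 1 was highest at each, by a wide margin at Plekho2. One 24204 bp upstream of Rnf19b, a ubiquitin ligase, had 1058 ± 551. The sites at Lmna, which encodes nuclear lamins, Egr1 and Neat1, a nuclear non-coding RNA, had 1183 ± 346, 1147 ± 618 and 1128 ± 354, and the annotation put these in untranslated regions of transcripts. All 12 of these named sites were in all 3 lists.

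When only intronic and intergenic sites away from RefSeq start windows were ranked, a choice made after the data were seen, 4 of the 12 remained. The newcomers included sites near Srgn, the proteoglycan serglycin of immune cell granules (1601 in MG 1, 600 in MG 2 and 902 in MG 3), Nr4a1, an orphan nuclear receptor (1125, 1013 and 890), and Btg2, an antiproliferative protein (1462, 664 and 892). The site at Nr4a1 differed little between libraries and those at Srgn and Btg2 were more than 2-fold higher in MG 1 than in MG 2. Among the 1000 most open distal sites of each library 343 were shared by all 3 and 717 by MG 1 and MG 3, fewer than for promoters.

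Regions were spread unevenly over genes. The 18144 genes with a region in a microglia list had a median of 3, and 9.02% had 10 or more, which together held 32.9% of these regions. Etv6, an ETS family repressor of blood cells, had the most with 55, of which 25 were in all 3 lists. Asap1, an ARF GTPase-activating protein, Chd7, a chromatin remodeller, and Runx1 had 50 each, with 21, 24 and 23 in all 3. Frmd4a, a scaffold of cell polarity, and Trio, a guanine nucleotide exchange factor, had 49, with 28 and 22 in all 3. The regions of Etv6 ran over 339 kb, and 39 of them were in introns.

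The libraries weighed these genes differently. At Runx1 the summed normalized counts were 8697 in MG 1, 4996 in MG 2 and 5827 in MG 3, and at Trio 7532, 10478 and 7924. Septin9, which encodes a cytoskeletal GTPase, had 44 regions but only 10 in all 3 lists, and its sums were 2554, 8901 and 5257. Runx1 was highest in MG 1, whereas Trio and Septin9 were highest in MG 2. Med13l, a Mediator subunit, had 48 regions, Rreb1, a Ras-responsive zinc finger factor, 46, Tmcc3, an endoplasmic reticulum protein, and Zfp608, a zinc finger protein, 45 each, and Gse1, a coiled-coil protein, 44. Counting only regions in all 3 lists, 6 of the 12 stayed and the first was Elmo1, an adaptor of engulfment that acts with DOCK proteins on Rac, with 29. Frmd4a followed with 28 and Rreb1 with 27. Long genes can collect more regions, and gene length was not adjusted for.

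The sequence around the start site differed with openness. Of 27025 genes with a RefSeq window, 13081 (48.4%) overlapped a table region. The median CpG ratio was 0.84 in the 500 windows with the highest levels, 0.74 in all windows with a region and 0.20 in windows with none. Among windows with a region it was 0.43 in the lowest 20% by level and 0.84 in the highest 20%. The identity genes had less: their 40 windows with a region had a median of 0.47. They split by role, with 0.85 over 11 transcription factors, 0.30 over 18 receptors and 0.35 over 11 secreted proteins. The Sall1 window shown above, at 0.82, lies near the median of the factors, and the P2ry12 and Cx3cr1 windows, at 0.30 and 0.23, near that of the receptors.

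Motif words were searched on both strands of the full 300-base windows. CCAAT was present in 59.0% of the 500 most open windows, in 37.2% of all windows with a region and in 38.3% of those without. Of the 11 named most open promoters with a window that could be shown, 9 had it, H3f3b in 4 places. The GC box GGGGCGGGG was in 28.6%, 21.3% and 3.18% of the same sets, the NRF1 word CGCNTGCGC in 13.4%, 12.2% and 1.15%, and the ETS word CCGGAAGT in 6.0%, 7.21% and 1.0%. The ETS word was thus no more frequent in the most open windows than in all open ones. Words of myeloid factors showed no rise with openness: GAGGAAGT (PU.1) was in 3.0%, 3.46% and 3.14%, TGANTCA (AP-1) in 5.0%, 5.62% and 9.95%, and TTGCNNAA (C/EBP) in 8.6%, 8.25% and 12.9%. In the identity genes the PU.1 word was in 4 of 40 windows, with CpG ratios from 0.06 to 0.34, whose sequences are given above. GC-rich words depend on base composition, which differed between the sets, with a median of 64.3% G and C in the 500 and 47.0% in windows without a region. Distal sites were not searched, because no sequence for them was used here.

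Among promoters above the median level, the 8 named as most variable between libraries were low in MG 1 and high in MG 2, except Foxo6. Eps8, a regulator of actin and growth factor signalling (chr6:137519444-137520716), had 36.8 in MG 1, 726 in MG 2 and 320 in MG 3, a 19.7-fold gap between MG 2 and MG 1. Has2, the hyaluronan synthase, had 41.8, 690 and 319, and its antisense gene Has2os had 43.5, 800 and 408. The libraries stood in the order seen at Sox10. Pgm2, a phosphoglucomutase, and Arpc1a, a subunit of the Arp2/3 complex, were 16.2-fold and 13.3-fold higher in MG 2 than in MG 1, Ddr1, a collagen receptor, 8.71-fold and Emp1, an epithelial membrane protein, 4.92-fold. Foxo6, a forkhead factor, went the other way with 716 in MG 1, 169 in MG 2 and 419 in MG 3. Of the 200 most variable promoters above the median level, 185 were highest in MG 1 and 15 in MG 2. Among all promoters 66.5% were highest in MG 1. The few large gaps with MG 2 highest were thus not the usual direction.

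Other promoters hardly moved. Txlng, a taxilin, had 519 in MG 1, 515 in MG 2 and 511 in MG 3. Mast3, a serine/threonine kinase, had 821, 803 and 823. Lztr1, an adaptor of Ras degradation, Git1, an ARF GTPase-activating protein, Otub2, a deubiquitinase, Ece1, the endothelin-converting enzyme, Tmem63a, an ion channel, and Pard6b, a polarity protein, had an SD of log2 level from 0.014 to 0.019. The 3 libraries had nearly equal levels at these promoters. The median SD of log2 level was 0.30 over the promoters above the median level, and 0.95 for Sall1.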

How the data were processed

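Accessibility in sorted microglia was analysed from the deposited table and peak lists. The submitters' processing notes name Bowtie2 2.4.1, cutadapt 1.8.1, DESeq2 1.36.0, MACS2 2.1.1.20160309 and ChIPseeker 1.32.1, and the build mm10. Settings, read shifting and duplicate removal were not given in the sources used. The authors' deposited library values are variance-stabilized log2 values, beside each region's mean normalized signal. The deposited lists give each peak's fold enrichment and −log10 q, used only within a list. A further 8 per-sample columns belonged to no sample here and stayed out.

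Of 93084 lines, 155 were repeats and 65 regions lacked annotation. Inverting the transformation gave normalized counts with means within 2.37e-06 of the deposited ones, and whole reads (within 0.02) for 100% of values once multiplied by size factors. Logs used a pseudocount of 1. Overlaps of at least 1 base came from bedtools 2.31.1, the rest from Python 3.11.15. Inversion, overlaps and motif search were tested on simulated data. Reads are not unique molecules.

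Named genes were the 4 markers, the 4 highest and 2 lowest promoters of each list, the 15 most open promoters, the 12 most open distal sites, the 12 genes with most regions, and the 8 most and 8 least variable promoters above the median level, without Gm, Rik and Mir names; not all are printed, and some are not reported here. Members and lists were chosen with earlier results of these data known. Alternatives were other region sets, levels not divided by width, other scalings, windows and thresholds, and leaving out each library.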

Additional observations from a re-analysis of the deposited data

How the results depend on the processing

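No paired analysis was possible because the description holds 1 group and no result comes from a test. The promoter share of counts was 67.8% over regions in all 3 lists only, and 58.6% to 62.1% when 1 library was left out. The lowest correlation between libraries over all regions was 0.59, and it was 0.77 when counts were not divided by width, 0.62 with a pseudocount of 5 and 0.49 over regions with a mean of at least 50 counts. Without that division 5 of the 15 most open promoters and 4 of the 12 most open distal sites stayed, and 4 identity genes were in the top 10% of promoters. Ranking only intronic and intergenic sites away from RefSeq start windows, which was chosen after seeing the data, also kept 4 of the 12. Among genes with most regions 6 of the 12 stayed when only regions in all 3 lists were counted. Leaving out 1 library kept 13 to 14 of the most open promoters, 8 to 11 of the distal sites, 9 to 12 of the genes with most regions and 1 to 4 identity genes in the top 10%. Regions in all 3 lists numbered 35067 with 50% overlap both ways and 37684 at a −log10 q of at least 5. With 42 to 90 reads per region at the median, weak regions are the least precise.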
